A study of Apis mellifera with 36 samples.

Results

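The genes *groucho* (*gro*), *daughterless* (*da*) and *ovo* of the honeybee, *Apis mellifera*, were taken by their gene names in the genome annotation, which gave 3 of the 12365 genes of the deposited tables. In *Drosophila*, Groucho is a corepressor that does not bind DNA itself and is brought to its target genes by DNA-binding repressors such as Hairy, Runt and Engrailed. Daughterless is the class I helix-loop-helix protein that pairs with tissue-specific helix-loop-helix proteins, among them Twist and the proneural factors, and is held inactive by Extra macrochaetae. Both are supplied by the mother to the *Drosophila* egg and act in the reading of the sex signal, Daughterless as an activator and Groucho with a repressor, while *ovo* encodes a zinc finger transcription factor of the female germ line and of the epidermis.

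In the assembly Amel_4.5 and its NCBI annotation, *gro* (gene5157) lies on the minus strand of linkage group 6 from 8348044 to 8469791, with 3 transcripts whose exons cover 6354 bp and whose proteins have 718 to 786 residues. *da* (gene10933) lies on the plus strand of linkage group 14 from 9729757 to 9781319, with 17 transcripts, 4089 bp of exons and proteins of 509 to 654 residues. *ovo* (gene11906) lies on the plus strand of linkage group 16 from 3851360 to 3883155, with 1 transcript, 6712 bp of exons and a protein of 1006 residues. Introns took 94.8%, 92.1% and 78.9% of the *gro*, *da* and *ovo* spans, and no other annotated gene overlapped any of the 3. The longest annotated 3′ UTR had 2935 bp in *gro*, 97 bp in *da* and 3485 bp in *ovo*, against a median of 250 bp over 10147 genes, so that the *gro* and *ovo* models end with long 3′ UTRs and the *da* models with a short one.

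RNA-seq was made from 36 single embryos, 6 in each of 6 groups: diploid female (worker) and haploid male (drone) embryos, each at 24, 48 and 72 h after egg laying. Each group held 3 embryos from each of 2 queens, and the sex of an embryo follows the type of comb frame in which the queen laid it. The queens were the first and second sequencing batch in the labels, so queen and batch cannot be told apart. Eggs were laid within 2 h according to the labels and 3 h according to the methods, no genotype was altered and no agent was given, and each embryo is 1 library, so p-values measure the spread between embryos.

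The gene counts of an embryo summed to 7122090 to 12566958 in females and 7612765 to 12808580 in males at 24 h, 5503556 to 7944906 and 3222023 to 7572141 at 48 h, and 5600680 to 7345814 and 1195774 to 2008560 at 72 h. The RPKM values (reads scaled by gene length and library total) were scaled by a larger total, of which the gene counts made up 25.96% ± 4.82 in males at 72 h and 53.5% to 79.3% in the other groups (means, SD, n = 6). RPKM is therefore relative to that larger total, whose make-up is not given as such. The paper's supplement lists the reads of each embryo by genomic region, though these reads sum to other totals. There, introns and noncoding exons held larger shares in the males at 72 h than in any embryo of the other groups. Counts scaled by TMM (trimmed mean of M-values) are relative to the other genes instead. The scalings differ most in males at 72 h: the median log2 difference of females over males over all 9575 genes tested was 0.18 at 48 h and 0.41 at 72 h with TMM, but 0.98 and 2.97 with the totals behind RPKM. One library stands apart, male embryo 6 of queen 1 at 48 h, with a gene share of 67.0% against a lowest of 46.1% in that group. Of 6 embryo markers, all 6 were detected in females at 48 and 72 h, with summed levels of 194 to 327 and 104 to 243 RPKM. In males of these times engrailed (*En*) was at 0 counts in every embryo and the sums were 178 to 246 and 61.1 to 121 RPKM. The sums hide opposite markers: at 48 h the germ line gene *vas* had 20.09 to 36.05 RPKM in females and 144.47 to 215.5 RPKM in males, and the mesoderm gene *Twi* 103.54 to 245.53 and 0 to 0.38 RPKM. At 24 h *vas* had 485.18 to 595.55 RPKM in females and 489.52 to 584.63 RPKM in males. *nanos*, also a germ line gene, was opposite to *vas* at 48 h, with 5.43 to 7.79 RPKM in females and 2.75 to 5.14 RPKM in males. The 10 markers of material from outside the egg (royal jelly proteins and vitellogenin) summed to at most 22.2 RPKM in any embryo. Whole embryos were sequenced, so fewer cells of a type and less RNA per cell cannot be told apart.

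*gro* and *ovo* were abundant and *da* was scarce. On the RPKM scale *da* was the lowest of the 3 in 36 of 36 embryos. *gro* stood above *ovo* in 30 embryos, and *ovo* stood above *gro* in the other 6, which were the 6 females at 48 h. The median share of genes with a lower RPKM was between 90.2% and 98.7% for *gro*, between 20.4% and 54.0% for *da*, and between 58.7% and 97.2% for *ovo*, so that *ovo* moved across the widest stretch of the ranking.

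**Figure D1:**
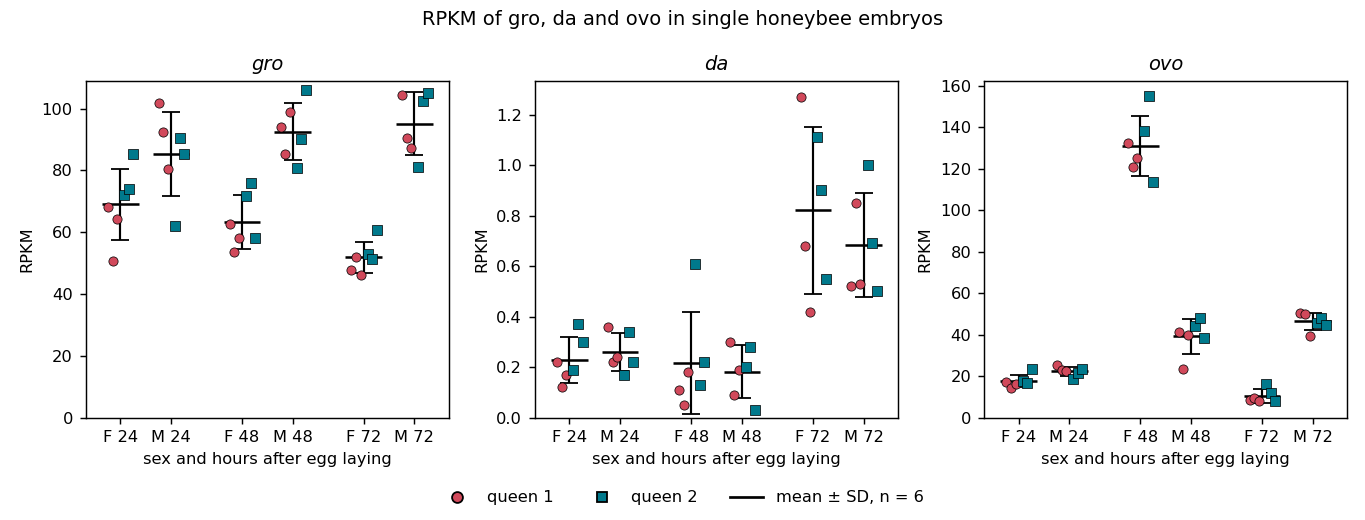
RPKM of *gro*, *da* and *ovo* in each of the 36 embryos at 24, 48 and 72 h after egg laying, females left of males. Circles are queen 1 and squares queen 2, and the bars are as named in the legend. The 6 females at 48 h hold the highest *ovo* levels (113.49 to 155.01 RPKM), males at 72 h hold 39.34 to 50.68 RPKM and females at 72 h 7.77 to 16.4 RPKM.

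*ovo* peaked at 48 h in females, while in males its 48 and 72 h levels were both above that at 24 h. At 24 h its lowest, median and highest levels were 14.33, 17 and 23.41 RPKM in females and 18.5, 22.79 and 25.22 RPKM in males, with 5 of the 6 females below every male. At 48 h they were 113.49, 128.9 and 155.01 RPKM in females and 23.57, 40.56 and 48.25 RPKM in males, so the groups were far apart. At 72 h the order was the opposite: 7.77, 8.90 and 16.4 RPKM in females and 39.34, 46.85 and 50.68 RPKM in males, again with no overlap. The mean *ovo* level of females at 48 h was 7.44-fold that of females at 24 h, and at 72 h it was 12.7-fold below the 48 h mean. In males the 48 h mean was 1.76-fold and the 72 h mean 2.07-fold that at 24 h. The lowest male at 48 h was embryo 6 of queen 1, the library that stands apart.

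The sexes were compared by an exact permutation test of mean log2(RPKM + 0.1), two-sided, with Benjamini-Hochberg adjustment over 9 comparisons (3 genes, 3 times). Sex labels were exchanged among all embryos of a time, regardless of queen. The smallest p that 6 against 6 embryos allow is 0.00216. The female minus male difference of *ovo* was −0.35 at 24 h (exact p = 0.0195, adjusted 0.0351), 1.76 at 48 h (exact p = 0.00216, adjusted 0.00486) and −2.21 at 72 h (exact p = 0.00216, adjusted 0.00486). Within queen 1 and queen 2 it was −0.57 and −0.13 at 24 h, 1.90 and 1.63 at 48 h, and −2.42 and −1.99 at 72 h. The 48 h and 72 h differences thus lay in opposite directions in the embryos of both queens. At 24 h the *ovo* difference had an exact permutation p of 0.1 within queen 1 and 0.5 within queen 2. The 3 against 3 embryos of a queen allow no p under 0.1.

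*gro* had mean levels between 51.9 and 69.0 RPKM in females and between 85.4 and 95.1 RPKM in males, and was lower in females than in males from 48 h on. At 24 h the lowest, median and highest *gro* levels were 50.74, 70.0 and 85.27 RPKM in females and 61.87, 87.94 and 101.71 RPKM in males. These ranges overlapped, and the difference of −0.31 in mean log2(RPKM + 0.1) did not pass (exact p = 0.0606, adjusted 0.0909). At 48 h the levels were 53.57, 60.44 and 75.8 RPKM in females and 80.83, 92.18 and 105.93 RPKM in males, a difference of −0.55 (exact p = 0.00216, adjusted 0.00486). At 72 h they were 46.3, 51.64 and 60.83 RPKM in females and 81.1, 96.34 and 105.11 RPKM in males, a difference of −0.87 (exact p = 0.00216, adjusted 0.00486). Every female lay below every male at both of these times. Mean *gro* RPKM in females was 0.684 times that in males at 48 h and 0.546 times at 72 h, and within queen 1 and queen 2 the log2 differences were −0.67 and −0.43 at 48 h and −0.95 and −0.80 at 72 h.

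*da* was near the lower end of what these libraries resolve. The 6 embryos of a group held 7 to 19 *da* counts in females and 7 to 18 in males at 24 h, 2 to 23 and 1 to 13 at 48 h, and 15 to 52 and 12 to 27 at 72 h. Summed over 6 embryos these were 69 counts in females (95% Poisson interval 53.7 to 87.3) and 79 in males (62.5 to 98.5) at 24 h, 52 (38.8 to 68.2) and 39 (27.7 to 53.3) at 48 h, and 198 (171.4 to 227.6) and 105 (85.9 to 127.1) at 72 h. The intervals cover counting error only. The lowest, median and highest *da* levels were 0.12, 0.205 and 0.37 RPKM in females and 0.17, 0.23 and 0.36 RPKM in males at 24 h, 0.05, 0.155 and 0.61 against 0.03, 0.195 and 0.3 RPKM at 48 h, and 0.42, 0.79 and 1.27 against 0.5, 0.61 and 1.0 RPKM at 72 h. Females and males overlapped at every time, and the level was higher at 72 h in both sexes, with means 3.79-fold (females) and 3.75-fold (males) those at 48 h. The sex difference in mean log2(RPKM + 0.1) was −0.15, 0.08 and 0.20 at 24, 48 and 72 h, each with an exact permutation p above the threshold (p = 0.485, 0.846 and 0.465).

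On the RPKM scale the group means of *gro* ran from males at 72, 48 and 24 h to females at 24, 48 and 72 h, and no neighbours in this order passed the exact permutation test adjusted over 15 neighbour pairs (lowest adjusted p = 0.054). For *ovo* the RPKM order was females at 48 h, males at 72, 48 and 24 h, then females at 24 and 72 h. The step from females at 48 h to males at 72 h (adjusted exact p = 0.0162), from males at 48 h to males at 24 h (0.0216) and from females at 24 h to females at 72 h (0.0243) passed, and the other 2 steps did not. For *da* in RPKM the 72 h groups led, females then males, and only the step from males at 72 h to males at 24 h passed (adjusted exact p = 0.0162). The pairs tested were picked by the order of these same means, so the p-values of the steps are a description only. Steps that did not pass do not make an order flat, as *gro* differed between the sexes at 48 and 72 h. These orders depend on the scale. With TMM-scaled CPM, *ovo* was highest in males at 72 h (mean 2000 CPM), above females at 48 h (1160 CPM) with no overlap (adjusted exact p = 0.0054 over 15 pairs), and *da* was lower in females (3.48 CPM) than in males (17.4 CPM) at 72 h, also with no overlap. For *gro* the TMM order placed females at 48 h (532 CPM) next to females at 24 h (529 CPM), a step that did not pass, while the other 4 steps passed (adjusted exact p = 0.0054, 0.0054, 0.0455 and 0.0122).

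With TMM scaling, the counts were tested by edgeR's quasi-likelihood test in 1 model of the 6 groups and the queen, with a gene called at a Benjamini-Hochberg adjusted p under 0.05 over all 9575 genes and an absolute log2 fold change over 1. All 3 genes passed the filter on low counts; *da* reached the level required, 1.625 CPM (counts scaled by library total), in 12 of 12 embryos at 72 h and in 7 of the 24 others, where 6 embryos are needed. Its 48 to 72 h changes in each sex are therefore given with the values from all genes without a filter beside them. Without the filter its log2 changes from 24 to 72 h were 1.63 in females and 3.58 in males. Its female over male value at 72 h was then −2.26, and its female minus male change from 48 to 72 h was −1.66. At 24 h edgeR called 0.094% of all genes between the sexes and 0 of the 3, with log2 fold changes of females over males of −0.40 for *gro* (SE 0.151, adjusted p = 0.208), −0.31 for *da* (SE 0.395, adjusted p = 0.769) and −0.44 for *ovo* (SE 0.182, adjusted p = 0.250). *gro* and *ovo* had an unadjusted p under 0.05 there, and DESeq2 and limma also called 0 of the 3. In the fit of the 24 h embryos alone, *gro* (−0.39, edgeR adjusted p = 0.047) and *ovo* (−0.42, edgeR adjusted p = 0.0205) passed the p threshold but not the fold threshold.

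At 48 h edgeR called 61.2% of all genes between the sexes, 33.7% higher and 27.6% lower in females, and 1 of the 3. The median TMM-scaled level of *gro* was 498.2 CPM in females and 1422 CPM in males, a log2 fold change of −1.37 (SE 0.154, adjusted p = 1.28e-10). That of *ovo* was 1122 CPM in females and 660.5 CPM in males, a log2 fold change of 0.90 (SE 0.182, adjusted p = 2.33e-05) that stayed under the fold threshold, and that of *da* was 0.848 and 2.096 CPM, with −0.60 (SE 0.452, adjusted p = 0.220; 0.25, of the opposite sign, with the totals behind RPKM). Without male embryo 6 the values were −1.44 for *gro*, 0.76 for *ovo* and −0.78 for *da*, with the same calls. Without female embryo 18 of queen 2, which held 23 of the 52 female *da* counts, the *da* value was −1.12 and was called (edgeR adjusted p = 0.0255).

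At 72 h edgeR called 65% of all genes, 38.2% higher and 26.8% lower in females, and all 3 were lower in females with TMM. *gro* had a median of 333.1 CPM in females and 3436 CPM in males, with a log2 fold change of −3.53 (SE 0.167, adjusted p = 3.84e-22). *ovo* had 57.66 CPM in females and 1817 CPM in males, with −4.80 (SE 0.212, adjusted p = 4.2e-23), and only 432 of 9575 genes had a lower value. *da* had 3.3 CPM in females and 17.42 CPM in males, with −2.30 (SE 0.369, adjusted p = 4.66e-07), but with the totals behind RPKM the *da* value was 0.27 and of the opposite sign. With those totals *gro* was −0.88, no longer past the fold threshold, and *ovo* −2.18, and 91.1% of the called genes were higher in females in place of 58.8% (73.6% in place of 55% at 48 h).

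**Figure D2:**
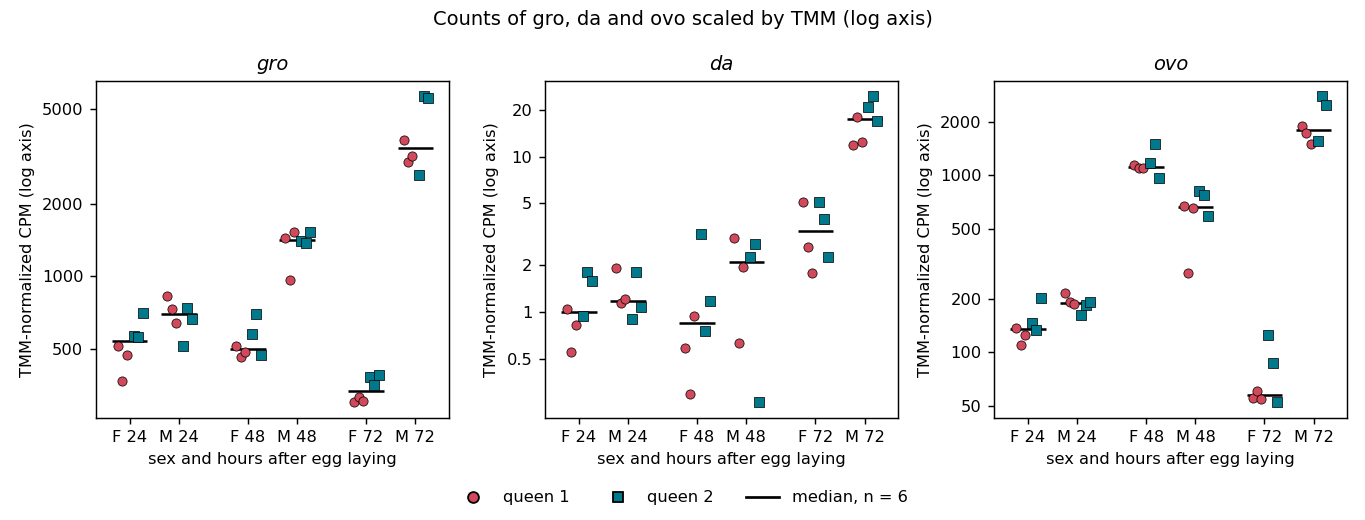
TMM-scaled CPM (log axis) of *gro*, *da* and *ovo* in each embryo at 24, 48 and 72 h, females left of males, with circles for queen 1, squares for queen 2 and bars at the median of 6 embryos. At 72 h every female lies below every male for all 3 genes, with medians of 333.1 and 3436 CPM for *gro*, 3.3 and 17.42 CPM for *da*, and 57.66 and 1817 CPM for *ovo*; for *da* this separation is not present in RPKM.

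Since the scaling moves all genes together, each change was also taken relative to the median gene under the same scaling. Over 5 scalings (TMM, upper quartile, DESeq2 size factors, gene totals, totals behind RPKM) the female over male value of *ovo* relative to the median gene was 0.72 to 0.76 at 48 h and −5.23 to −5.15 at 72 h. That of *gro* was −1.56 to −1.53 and −3.97 to −3.85, and that of *da* −0.78 to −0.73 and −2.72 to −2.70. A scaling shifts all genes alike, so these values are close by construction; they place each gene against the others and are no sign of stability. For *da* at 72 h the RPKM ranges of the sexes overlapped, and the negative value is one against the other genes.

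**Figure D3:**
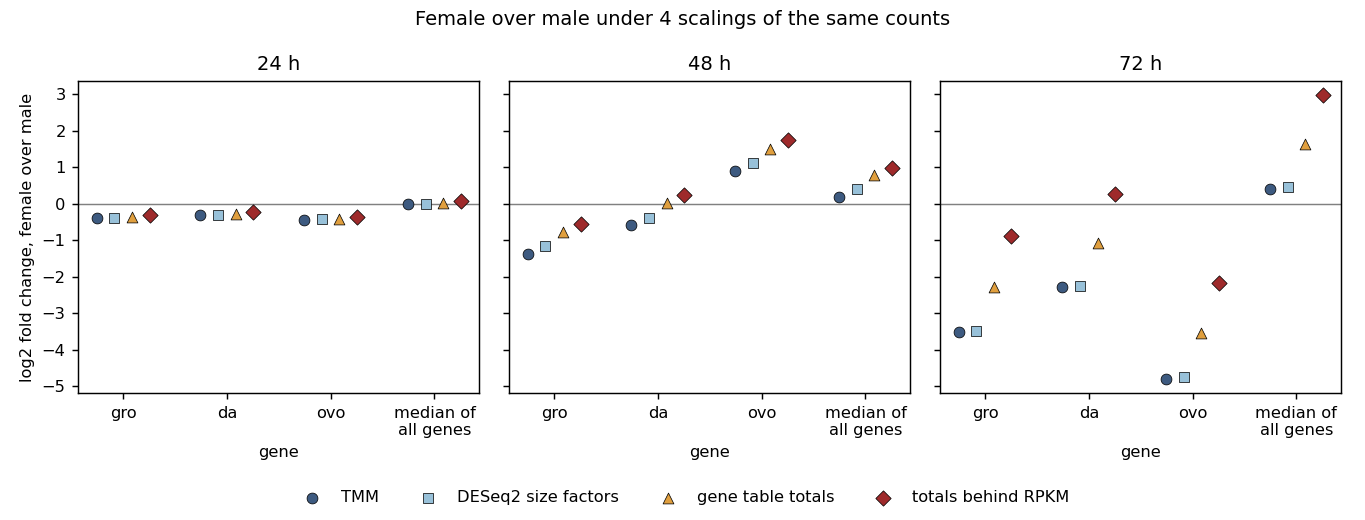
Log2 fold change of females over males for *gro*, *da* and *ovo* at 24, 48 and 72 h with 4 scalings (TMM, DESeq2 size factors, gene totals and the totals behind RPKM), beside the median over all 9575 genes tested. The value of *da* at 72 h is −2.30 with TMM and 0.27 with the totals behind RPKM, a change of sign, while the median over all genes is 0.41 and 2.97.

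Over time, in females, edgeR called 58.8% of all genes from 24 to 48 h and 1 of the 3, *ovo*, with a log2 fold change of 3.04 (SE 0.195, adjusted p = 1.14e-17); *gro* and *da* had 0.02 and 0.03. From 48 to 72 h 34.7% were called (59.7% of these higher at 72 h, 77.7% with the totals behind RPKM) and 2 of the 3: *ovo* with −4.04 (SE 0.205, adjusted p = 5.05e-20), where 65 of 9575 genes had a lower value, and *da* with 1.62 (SE 0.386, adjusted p = 0.000344; 1.62 without the filter). From 24 to 72 h 59.4% were called and 1 of the 3, *da* with 1.65 (edgeR adjusted p = 0.00011), while *ovo* had −0.99 and *gro* −0.64, both with an adjusted p under 0.05 but under the fold threshold. *ovo* was thus highest in females at 48 h, and its steps to and from 48 h were called under all 5 scalings described above.

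In males edgeR called 21.3% of all genes from 24 to 48 h (51.1% of these higher at 48 h, 6.1% with the totals behind RPKM) and 1 of the 3, *ovo* with 1.70 (SE 0.186, adjusted p = 5.65e-10); *gro* had 0.99, just under the fold threshold, and *da* 0.32. From 48 to 72 h 28.4% were called (59% higher at 72 h, 6.3% with those totals) and all 3 of them: *gro* with 1.5 (SE 0.154, adjusted p = 1.97e-10), *da* with 3.33 (SE 0.423, adjusted p = 2.21e-08; 3.28 without the filter) and *ovo* with 1.67 (SE 0.186, adjusted p = 1.21e-09). From 24 to 72 h 45.2% were called and again all 3, with 2.50, 3.64 and 3.37 for *gro*, *da* and *ovo* (edgeR adjusted p = 6.98e-17, 1.62e-10 and 5.92e-18). With the totals behind RPKM the 24 to 72 h values in males were 0.15 for *gro*, which was then not called, 1.37 for *da* and 1.05 for *ovo*. With those totals 7.5% of the called genes were higher at 72 than at 24 h in males in place of 50.7%, and the median gene had −2.34 in place of −0.10.

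The difference between the sexes in the change over time was tested as an interaction. From 24 to 48 h edgeR called 55.8% of all genes (52.5% of these positive, 70.8% with the totals behind RPKM) and 1 of the 3, *ovo*, whose change was larger in females than in males by 1.34 (SE 0.258, adjusted p = 1.6e-05). From 48 to 72 h 43.8% were called (53.1% positive, 92.8% with those totals) and all 3 of them, with female minus male changes of −2.16 for *gro* (adjusted p = 3.99e-11), −1.70 for *da* (SE 0.582, adjusted p = 0.0118) and −5.70 for *ovo* (adjusted p = 2.34e-20). Only 103 of 9575 genes had a lower value than *ovo* in that interaction. The *da* interaction was −1.18 without female embryo 18 of queen 2 (edgeR adjusted p = 0.083) and 0.03 with the totals behind RPKM, so it rests on that embryo and on the scaling. Between the queens edgeR called 0% of all genes, queen 2 over queen 1, and 0 of the 3 (0.23, 0.47 and 0.31 for *gro*, *da* and *ovo*); all 3 had an unadjusted p under 0.05, and DESeq2 and limma called 0 of the 3 as well.

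Ratios between the 3 genes within an embryo, as counts per exonic base, do not depend on any library total. The ratio of *ovo* to *gro* had a lowest, median and highest value of 0.228, 0.251 and 0.282 in females and 0.239, 0.261 and 0.299 in males at 24 h. At 48 h it was 1.93, 2.08 and 2.26 in females and 0.276, 0.42 and 0.549 in males, and at 72 h 0.128, 0.178 and 0.309 in females and 0.426, 0.479 and 0.56 in males. The sexes overlapped at 24 h and did not at the later times, with females above males at 48 h and below at 72 h. The ratio in females was 4.98-fold that in males at 48 h and 0.393-fold at 72 h (both exact permutation p = 0.00216, adjusted over 9 tests 0.00648), with log2 differences in queen 1 and queen 2 of 2.57 and 2.06 at 48 h and −1.49 and −1.20 at 72 h.

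The ratio of *da* to *gro* was 2.13-fold higher in females at 72 h (exact permutation p = 0.013, adjusted 0.0293), with medians of 0.0151 in females and 0.00641 in males and overlapping ranges. The ratio of *da* to *ovo* at 72 h was 5.42-fold higher in females (exact permutation p = 0.00216, adjusted 0.00648), with no overlap. At 48 h it was 0.338 times that in males and did not pass (exact permutation p = 0.0541, adjusted 0.0974). Against both other genes, *da* therefore stood higher in females than in males at 72 h.

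**Figure D4:**
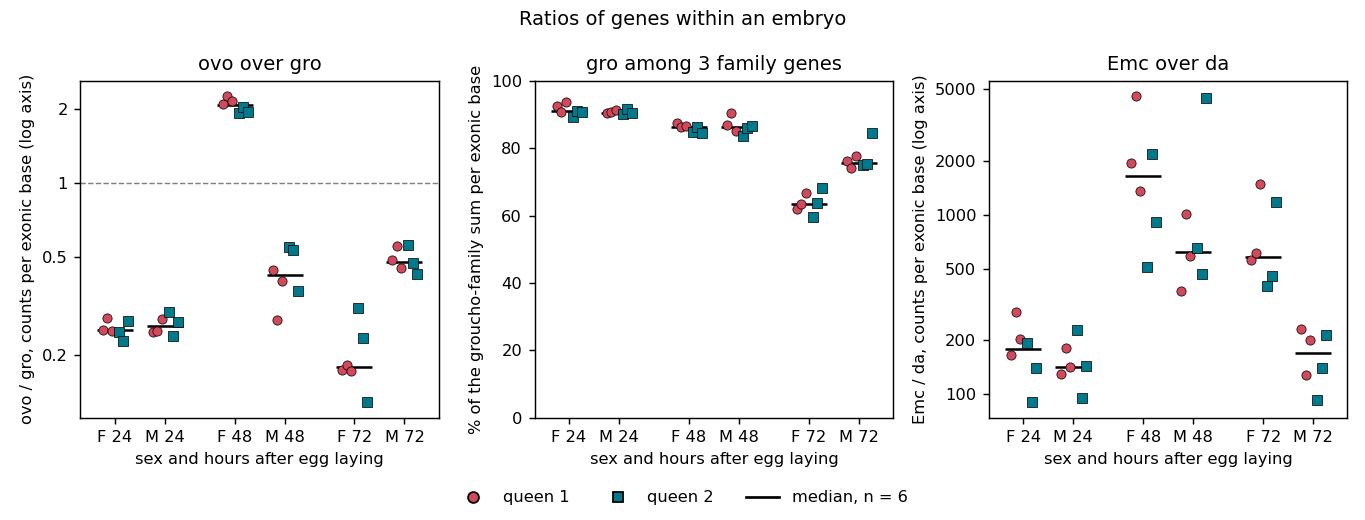
Ratios within each embryo at 24, 48 and 72 h, females left of males, bars at the median of 6: *ovo* over *gro* per exonic base (log axis), *gro* as a percentage of the 3 annotated groucho-family genes, and *Emc* over *da* per exonic base (log axis). The *ovo* to *gro* ratio is 1.93 to 2.26 in females and 0.276 to 0.549 in males at 48 h, and 0.128 to 0.309 in females and 0.426 to 0.56 in males at 72 h.

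The annotation names 2 more genes of the groucho family, LOC408894 (protein groucho-like) and LOC411175 (transducin-like enhancer protein 4-like), both on linkage group 6; these were taken up after the tables were seen. Per exonic base, *gro* made up 89.3% to 93.8% of the 3 genes in females and 90.3% to 91.7% in males at 24 h, and 84.5% to 87.6% and 83.6% to 90.6% at 48 h. At 72 h its share was 59.7% to 68.3% in females and 74.2% to 84.5% in males, with no overlap. The female minus male difference of this share at 72 h was −13.2 percentage points (exact permutation p = 0.00216, adjusted over 6 tests 0.00648; −12.1 in queen 1 and −14.4 in queen 2). LOC411175 took 9.98% to 12.4% in females and 0.383% to 1.16% in males at 72 h, and LOC408894 took 20.9% to 28.7% in females and 15% to 25.1% in males. *gro* was the main transcript of the family in every group, and its share was lowest in females at 72 h. Reads shared between such related genes could be counted differently, and their part in these shares was not tested.

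*Emc*, the partner that in *Drosophila* holds Daughterless inactive, was far above *da* in every embryo. Its mean level was 35.9 RPKM in females and 37.1 RPKM in males at 24 h, 249 and 117 RPKM at 48 h, and 543 and 105 RPKM at 72 h. The ratio of *Emc* to *da* per exonic base was 399 to 1490 in females and 92.2 to 230 in males at 72 h, a log2 difference of 2.12 (exact permutation p = 0.00216, adjusted over 6 tests 0.00648; 2.14 in queen 1 and 2.10 in queen 2). At 48 h the ranges were 513 to 4570 in females and 377 to 4500 in males and overlapped (exact permutation p = 0.227). The *Emc* to *da* ratio was thus higher in females at 72 h by more than the spread between embryos.

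The genes that work with the 3 were taken from lists made by annotation text. The first holds 16 genes of families that recruit Groucho in *Drosophila*, of which 14 passed the filter on low counts. With TMM, edgeR called 9 of them higher and 2 lower in females at 48 h, and 8 higher and 3 lower at 72 h, against the 33.7% and 27.6%, and 38.2% and 26.8%, of all genes given above. The median log2 fold change was 3.72 at 48 h and 1.5 at 72 h, against 0.18 and 0.41 over all genes. With genes at 0 counts in all males set to a floor of 3 counts per library, the 48 h median was 1.56. With the totals behind RPKM the counts were 9 higher and 2 lower at 48 h, against 49.2% and 17.6% of all genes, and 11 and 3 at 72 h, against 78.8% and 7.73%. Of the 14 genes, 8 passed the filter only through the females of 48 and 72 h and so had to differ, so nothing is read from the excess of higher calls.

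LOC726124, a run-like transcription factor, had the highest fitted value at 48 h: 1480 to 3436 counts in females and 0 in each of the 6 males, at least 420.5-fold higher against the floor of 3 counts per library. At 72 h it was *En*, with 83 to 238 counts in females and 0 in each male, at least 6.0-fold higher. That rank rests on the 0 counts: *slp* (sloppy paired), with 433 to 1054 counts in females and 0 to 4 in males, was 22.1-fold above the same floor. The lowest at both times was *Dl-2*, dorsal-2, with 3 to 10 counts in females and 60 to 190 in males at 48 h (log2 fold change −5.19, edgeR adjusted p = 5.6e-20) and 0 to 4 and 3 to 34 at 72 h (−6.57, edgeR adjusted p = 1.38e-19). Hairy (*h*), the repressor that recruits Groucho in the segmenting *Drosophila* embryo, had 1023 to 1494 counts in females and 0 to 2 in males at 48 h.

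The second list holds 9 helix-loop-helix partners of Daughterless, and 5 passed the filter. With TMM, edgeR called 3 higher and 1 lower in females at 48 h and 3 higher and 0 lower at 72 h, with medians of 2.84 and 1.5. Of all genes 33.7% were higher and 27.6% lower at 48 h, and 38.2% and 26.8% at 72 h, with medians of 0.18 and 0.41. With the totals behind RPKM the list counts were 4 higher and 0 lower at 48 h, against 49.2% and 17.6% of all genes. At 72 h they were 5 higher and 0 lower, against 78.8% and 7.73%. Of the 5 genes, 3, *Twi* and *nau* among them, passed the filter only through the females of 48 and 72 h. They were those called higher at 48 h with TMM and had to differ, so nothing is read from the excess of higher calls or from the medians. With *nau*, at 0 counts in all males at 48 h, set to the floor, the 48 h median was 1.14. *Twi*, encoding Twist of the mesoderm, was the highest. It had 1874 to 4534 counts in females and 0 to 8 in males at 48 h (log2 fold change 9.50). At 72 h it had 1186 to 3487 and 0 to 3 counts (8.61). The lowest called was LOC100576700 (neurogenin-3-like) at both times, with −1.02 at 48 h (edgeR adjusted p = 0.000319) and 1.5 at 72 h (edgeR adjusted p = 1.82e-07).

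The third list holds 9 genes of the *Drosophila* sex signal, all of which passed the filter. With TMM, edgeR called 5 higher and 1 lower in females at 48 h, and 3 higher and 1 lower at 72 h, with medians of 1.27 and 0.72. Over all genes these were 33.7% and 27.6%, and 38.2% and 26.8%, with medians of 0.18 and 0.41, so the 72 h share lies near that of all genes. With the totals behind RPKM the list counts were 7 and 1 at 48 h, against 49.2% and 17.6% of all genes, and 8 and 0 at 72 h, against 78.8% and 7.73%. STAT92E-like, the signal transducer of the JAK-STAT pathway, was the highest at 48 h, with 23.66 to 32.02 RPKM in females and 0.17 to 0.95 RPKM in males (log2 fold change 5.11, edgeR adjusted p = 1.08e-19). *Snf*, the U1 snRNP protein that takes part in *Sxl* splicing in *Drosophila*, was the highest at 72 h, with 44.72 to 68.26 RPKM in females and 0.3 to 2.22 RPKM in males (3.27, edgeR adjusted p = 1.74e-10). LOC552308 was listed as a second homologue of *Sxl* but is annotated as a CCHC-type zinc finger RNA-binding protein, so its place in the list is uncertain. It was the lowest, and the one gene of the list called lower with TMM, with −3.23 at 48 h (edgeR adjusted p = 2.3e-20) and −1.60 at 72 h (edgeR adjusted p = 1.09e-10), but 0.98 at 72 h with the totals behind RPKM.

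**Figure D5:**
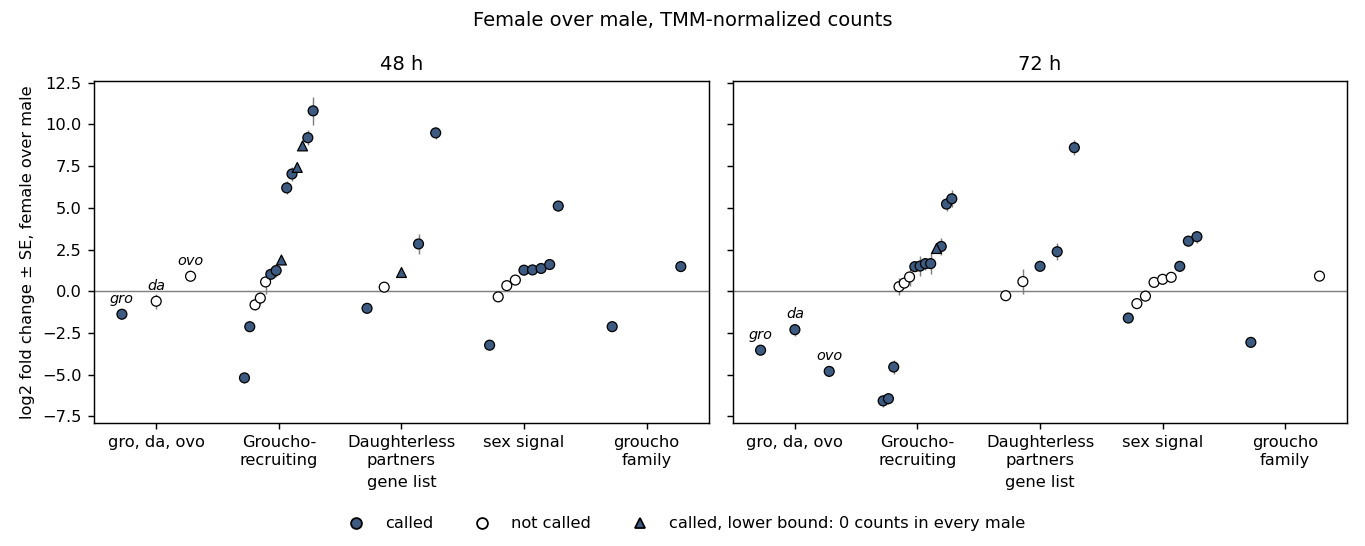
Log2 fold change of females over males (SE as bars, TMM-scaled counts, edgeR) at 48 and 72 h for *gro*, *da* and *ovo*, the lists of Groucho-recruiting genes, Daughterless partners and sex signal genes, and the groucho family; filled points were called, and triangles are lower bounds for genes at 0 counts in every male. With TMM all 3 genes lie below 0 at 72 h (−3.53, −2.30 and −4.80), with *da* at 0.27 under the totals behind RPKM. Of 14 Groucho-recruiting genes 8 were called higher and 3 lower at 72 h, against 38.2% and 26.8% of all genes. As 8 of the 14 passed the filter only through the females of 48 and 72 h, nothing is read from these counts.

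Of the 6 genes nearest to the 3 on either side, 4 passed the filter on low counts. LOC409487 (glutamine-dependent NAD(+) synthetase) lies 119 bp from *ovo* on the other strand and had log2 fold changes of females over males of 0.47 at 48 h and −1.25 at 72 h (called, edgeR adjusted p = 3.79e-09; 1.31 at 72 h with the totals behind RPKM). MBD-like, 1428 bp from *gro* on the same strand, had −0.32 and −1.38 (1.24 at 72 h with the totals behind RPKM), and LOC410552, 1319 bp from *da* on the other strand, had −1.5 and −1.06 (1.54 at 72 h with those totals). The uncharacterized LOC100578830, 16388 bp from *gro* on the other strand, had 2.53 and 1.56, of the opposite sign to *gro* at both times. Its counts were 13 to 27 in females and 0 to 5 in males at 48 h, and 63 to 135 and 0 to 7 at 72 h. It passed the filter only through the females of 48 and 72 h and so had to differ, so nothing is read from its sign. Whether counting used strand is not given in the sources used here, and it was not tested whether reads past the end of a gene reach its neighbour.

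By likeness over the 12 means of queen, sex and time of log2(TMM-scaled CPM + 1), the 5 genes most like *gro* were *Tesk1*, *5-HT1*, *Lis-1*, LOC726336 and LOC409486, with Pearson r of 0.991 to 0.994. At 72 h mean RPKM in females and males was 26.1 and 44.1 for *Tesk1*, 0.195 and 2.92 for *5-HT1*, and 61.9 and 116 for *Lis-1*. It was not lower in females for LOC726336 (16.4 and 14.7) and LOC409486 (63.9 and 61.0). On log2(RPKM + 0.1) the 5 genes most like *gro* were all others. Those most like *ovo* were LOC102654993, LOC725717 (polycomb group RING finger protein 3-like), LOC409928 (RNA polymerase II elongation factor ELL-like), LOC100576965 and LOC408275, with r of 0.96 to 0.976. LOC409928 had mean levels of 94.2 RPKM in females and 32.3 RPKM in males at 48 h, and 27.2 and 44.8 RPKM at 72 h. This order of the sexes was also seen in *ovo* and in LOC408275. LOC102654993, LOC725717 and LOC100576965 had higher mean RPKM in females at both times. Their 72 h means in females and males were 12.5 and 9.19, 16.2 and 7.25, and 0.672 and 0.483 RPKM. Those most like *da* were LOC102655706, LOC413503, LOC100577045, *SCR-C* and LOC100859932, with r of 0.963 to 0.976. LOC413503, LOC100577045, *SCR-C* and LOC100859932 were as scarce as *da*, with group means of at most 0.398, 0.183, 0.682 and 0.243 RPKM. LOC102655706 was not, with means of 38.4 RPKM in females and 15.2 RPKM in males at 72 h. Among the 3, r was 0.76 for *gro* and *ovo*, 0.74 for *gro* and *da* and 0.43 for *da* and *ovo*, but 0.31, −0.14 and −0.42 on log2(RPKM + 0.1), so these likenesses hold for the TMM scale. The 12 means share the library totals and scaling factors, and r is given as a description.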

How the data were processed

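RNA of single embryos was made into cDNA with the SMART-Seq v4 kit, transcribed in vitro from a T7 promoter and sequenced in pairs. According to the methods, the authors trimmed adaptors with cutadapt, aligned reads to Amel_4.5 with TopHat2 (bcl2fastq 2.16.0.10 and TopHat2 in the submitters' processing notes) and kept unambiguous alignments. The deposited tables hold raw read counts per gene and, as the authors computed them, RPKM; the counter and its strand setting are not given in the sources used here. The total behind each RPKM was recovered as count, length and RPKM imply, to within 1% for 100% of genes with at least 500 counts and 10 RPKM. Precision follows the gene totals, 1195774 to 12808580 per embryo.

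Counts were tested with edgeR 4.0.16 (R 4.3.3) with TMM and filterByExpr (minimum count 10, total 15) in 1 quasi-likelihood fit of 6 sex and time groups plus queen, with Benjamini-Hochberg adjustment, after a check on simulated counts. RPKM and ratios were compared by exact permutation tests (SciPy 1.17.1), with labels exchanged regardless of queen. Alternatives were other scalings, no filter, no queen term, each queen alone, only the groups compared, another threshold, DESeq2 1.42.0, limma 3.58.1, a replicate block and leaving out each embryo; the within-embryo ratios, the groucho family and the values relative to the median gene were added after seeing the data. Named genes were the 3 genes, their nearest neighbours and the 5 genes most like each. Of each list, the called genes with the largest and smallest sex difference at 48 and 72 h were also named. Beyond this rule, *h*, *Emc*, *nau*, *slp*, *vas*, *nanos* and LOC410535 were named after their values were seen. The 3 genes and the lists were chosen with earlier results of these data known.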

Additional observations from a re-analysis of the deposited data

Results flagged for a closer look

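Of 36 tests for an embryo far from the other 5 of its group (3 genes, 6 groups, RPKM and TMM-scaled CPM), 3 passed, and chance passes about 1 in 20. Female embryo 18 of queen 2 at 48 h had 0.61 RPKM and 3.153 TMM-scaled CPM of *da*, against 0.05 to 0.22 RPKM and 0.2942 to 1.171 CPM in the other 5 females of that group. Male embryo 6 of queen 1 at 48 h had 968.4 TMM-scaled CPM of *gro*, against 1381 to 1536 CPM in the other 5 males; its *gro* RPKM of 85.43 lay inside the range of that group.

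The change over time differed between females and males by the interaction test of edgeR, with TMM. From 24 to 48 h the *ovo* change was larger in females by 1.338 on the log2 scale. From 48 to 72 h the female minus male change was −2.156 for *gro*, −1.704 for *da* and −5.701 for *ovo*; with the totals behind RPKM it was −0.325, 0.026 and −3.925, so only the *ovo* value of these was called under both scalings.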

How the results depend on the processing

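Female over male at 72 h and the *ovo* steps to and from 48 h in females were called for *ovo* under every alternative run. Of 36 results, the call or sign changed for 1 with upper-quartile scaling, 2 with DESeq2 size factors, 3 with gene totals and 10 with the totals behind RPKM. With the totals behind RPKM, limma on log2(RPKM + 0.1) and limma on log2(RPKM + 1), *da* of females over males at 72 h was of the opposite sign (0.273, 0.196 and 0.104), as was its 48 to 72 h interaction (0.026, 0.113 and 0.072; −1.082 and not called with gene totals). In the same order these lost their call: *gro* of females over males at 48 h (−0.551, −0.552, −0.545; −0.774 with gene totals) and 72 h (−0.876, −0.871, −0.86), the *gro* 48 to 72 h interaction (−0.325, −0.32, −0.315), and in males *ovo* 48 over 24 h (0.799, 0.783, 0.761), *gro* 72 over 48 h (0.038, 0.037, 0.037), *ovo* 72 over 48 h (0.249, 0.267, 0.261) and *gro* 72 over 24 h (0.151, 0.164, 0.162). *ovo* of females over males at 48 h was called with these (1.743, 1.76, 1.736), with gene totals (1.502), DESeq2 size factors (1.106), the DESeq2 Wald test (1.106) and queen 1 alone (1.07). With limma on log2(RPKM + 1), *da* lost its time calls in females (72 over 48 h 0.577, 72 over 24 h 0.552) and males (72 over 48 h 0.505, 72 over 24 h 0.412).

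*gro* 48 over 24 h in males was called with upper-quartile scaling (1.02), DESeq2 size factors (1.014), the DESeq2 Wald test (1.014), no queen term (1.006), queen 2 alone (1.168) and only the groups compared (1.056). *ovo* 72 over 24 h in females was called with no filter (−1.016) and in queen 1 alone (−1.129). The *da* 48 to 72 h interaction was not called in queen 1 alone (−0.809), nor in queen 2 alone *da* 72 over 48 h in females (1.13) and the *ovo* 24 to 48 h interaction (0.892), where the *gro* one was called (−1.238). Leaving out 1 embryo at a time gave −1.178 to −0.898 for *ovo* 72 over 24 h in females, 0.897 to 1.08 for *gro* 48 over 24 h in males, −1.066 to −0.882 for the *gro* 24 to 48 h interaction, −1.116 to −0.367 for *da* of females over males at 48 h, and −1.928 to −1.181 for the *da* 48 to 72 h interaction; the last 2 changed their call only without female embryo 18 at 48 h.

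With embryo number as a replicate block (males of queen 1, numbers 4 and 6, which share only a number), *gro* 72 over 48 h was 1.565 (adjusted p = 0.054) and 764 genes were called; the same 4 embryos without the block, added after seeing the data, gave 1.534 for *gro*, 3.263 for *da* and 1.984 for *ovo*, none called, and 0 genes in all. The genes called between the sexes at 24 h were 9 with edgeR and 0 to 61 under the alternatives. In males the totals behind RPKM gave 3921, 6492 and 7781 called genes in place of 2044 (48 over 24 h), 2715 (72 over 48 h) and 4330 (72 over 24 h), and 6831 in place of 4198 for the 48 to 72 h interaction. With only the groups compared, 1632 were called for 72 over 48 h in males. Between the queens 0 genes were called by edgeR, 1736 had an unadjusted p under 0.05, and DESeq2 called 10 and limma 0. Depth limits *da*, with 1 to 23 counts per embryo at 48 h.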

Other observations

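*vas*, a germ line marker, had 13.81 to 22.07 RPKM in females and 40.13 to 90.18 RPKM in males at 72 h. The germ line gene *nanos* went the other way, with 6.76 to 12.7 RPKM in females and 1.37 to 2.67 RPKM in males at 72 h. The germ line markers thus gave no common direction between the sexes. LOC410535, annotated as a runt-related factor and overlapping LOC726124 on the other strand, had 11 to 40 counts in females and 31 to 104 in males at 48 h and 2 to 11 and 36 to 62 at 72 h, opposite in order to the 1480 to 3436 and 0 counts of LOC726124 at 48 h. The strand setting of the counting was not given in the sources used here, so reads of this pair may not be told apart.

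*Emc* had a log2 fold change of females over males of 0.25 at 48 h and −0.26 at 72 h with TMM, neither called by edgeR, but 1.09 and 2.37, both called, with the totals behind RPKM. The genes most like each of the 3 depended on the measure: of the 5 for *gro*, *da* and *ovo*, 1, 1 and 2 were also among the 5 by Spearman rho.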
